A study of Mus musculus with 6 samples.

Results

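The transcripts of 44 receptor tyrosine kinase genes were followed in 4T1 cells, a mouse mammary carcinoma line, after exposure to drug-loaded nanoparticles. The genes were chosen by symbol, as receptor tyrosine kinases other than Egfr and Erbb2, and all 44 were present once each among the 22806 features of the deposited table. The nanoparticle group consisted of 3 libraries from cells kept for 24 h with CM-PEG-PLGA@DOX/R848 particles, dosed to give 2 µg/mL of doxorubicin (DOX). Doxorubicin is an anthracycline that blocks topoisomerase II on DNA, and R848 (resiquimod) activates the innate receptor TLR7. The PBS group consisted of 3 libraries from the same line, kept for 24 h with phosphate-buffered saline. Cells given free drug or unloaded particles were not analysed here, so the parts played by doxorubicin, R848 and the carrier cannot be told apart. The labels do not say whether libraries of a group came from separate cultures. The p-values therefore rest on the spread among these samples alone, and that spread may be technical. In bulk RNA such as this, fewer cells of a type and less RNA per cell cannot be told apart.

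Receptor tyrosine kinases are single-pass membrane proteins that bind a ligand outside the cell and carry a kinase domain inside it. Ligand binding brings receptors together, the kinase domains phosphorylate each other, and adaptor proteins dock on the phosphorylated tyrosines and pass the signal to the RAS-MAP kinase and PI3-kinase pathways. In mammary epithelium and its tumours they are known for controlling growth, survival, branching and invasion. A few members, among them Erbb3, Ryk, Ptk7 and Ephb6, are known as pseudokinases, with little or no catalytic activity of their own.

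Levels are given as FPKM, fragments per kilobase of transcript scaled to the mapped fragments of the library, which allows genes to be compared per unit of length. The unit was inferred from the values, which give no read depth. Between 10596 and 10622 genes reached 1 FPKM in nanoparticle libraries, and between 10618 and 10631 did in PBS libraries. Genes listed above 0 numbered 18319 to 18509 in nanoparticle libraries, against 13544 to 13808 in PBS libraries. Among 9 epithelial markers used as a check of the cell type, Krt8 averaged 343 ± 0.924 FPKM in nanoparticle libraries and 215 ± 2.58 FPKM in PBS libraries (SD, n = 3 each), and Krt18 averaged 685 ± 22.7 FPKM in nanoparticle libraries and 514 ± 6.33 FPKM in PBS libraries, whereas Epcam and Cldn7 stayed under 1 FPKM in every library. Of the 7 epithelial markers tested 5 rose, Cldn3 fell, with 17.0 ± 0.780 FPKM in nanoparticle libraries and 24.7 ± 1.28 FPKM in PBS libraries, and Cldn4 did not pass, with 2.63 ± 0.0348 FPKM in nanoparticle libraries and 3.02 ± 0.234 FPKM in PBS libraries. The summed level of the epithelial list was 1127 to 1169 FPKM in nanoparticle libraries and 825 to 838 FPKM in PBS libraries, and its part in the receptor results was not tested. Of 14 macrophage markers, 11 did not reach 1 FPKM in any library and 1, Fcer1g, was listed at 0 in all, with summed levels of 11.8 to 14.9 FPKM in nanoparticle libraries and 11.3 to 13.0 FPKM in PBS libraries. Within that sum, Cd14 fell, with 7.13 ± 1.10 FPKM in nanoparticle libraries and 11.9 ± 0.663 FPKM in PBS libraries, while Csf1r averaged 1.45 ± 0.360 FPKM in nanoparticle libraries and 0.0416 ± 0.0125 FPKM in PBS libraries and Mpeg1 averaged 1.77 ± 0.104 FPKM in nanoparticle libraries and 0.0824 ± 0.0765 FPKM in PBS libraries. Both were called higher, in a direction the filter fixed, and Ptprc averaged 0.527 FPKM in nanoparticle libraries and was listed at 0 in every PBS library. The part of these markers in the receptor results was not tested. All 10 fibroblast and mural markers stayed under 1 FPKM, with sums of 1.38 to 2.09 FPKM in nanoparticle libraries and 0.271 to 0.381 FPKM in PBS libraries.

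Most expressed receptor genes were lower after nanoparticle exposure. A gene was tested if 3 or more of the 6 libraries reached 1 FPKM, which took in 22 of the 44 receptor genes. Of these 22, 18 fell and 3 rose, and 1 did not pass (limma on log2(FPKM + 1), nanoparticle minus PBS, Benjamini-Hochberg adjusted p under 0.05 over all 10863 tested genes). Over all tested genes, 46.0% were called lower and 40.5% were called higher, so that 86.4% were called in either direction. A fall of at least 2-fold on the log2 scale was found for 8 receptor genes, or 36.4% of those tested, beside 13.5% of all tested genes. A rise of at least 2-fold was found for 2 receptor genes, beside 10.2% of all tested genes. None of the 22 overlapped between the groups, beside 87.2% of all tested genes without overlap. The median log2 fold change was -0.88 over the tested receptor genes and -0.058 over all tested genes. For 2 of the 22 the filter fixed the direction: Ephb3 reached 1 FPKM in nanoparticle libraries only, and Ephb6 in PBS libraries only. The other 20 reached it in both groups, and 17 of them fell, 2 rose and 1 did not pass, with 7 at least 2-fold lower and 1 at least 2-fold higher. Log2 fold changes on this scale understate the change of low genes. Against a 1.5-fold change, the calls of Axl, Tyro3, Epha1, Fgfr2 and Epha4 were lost.

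**Figure D1:**
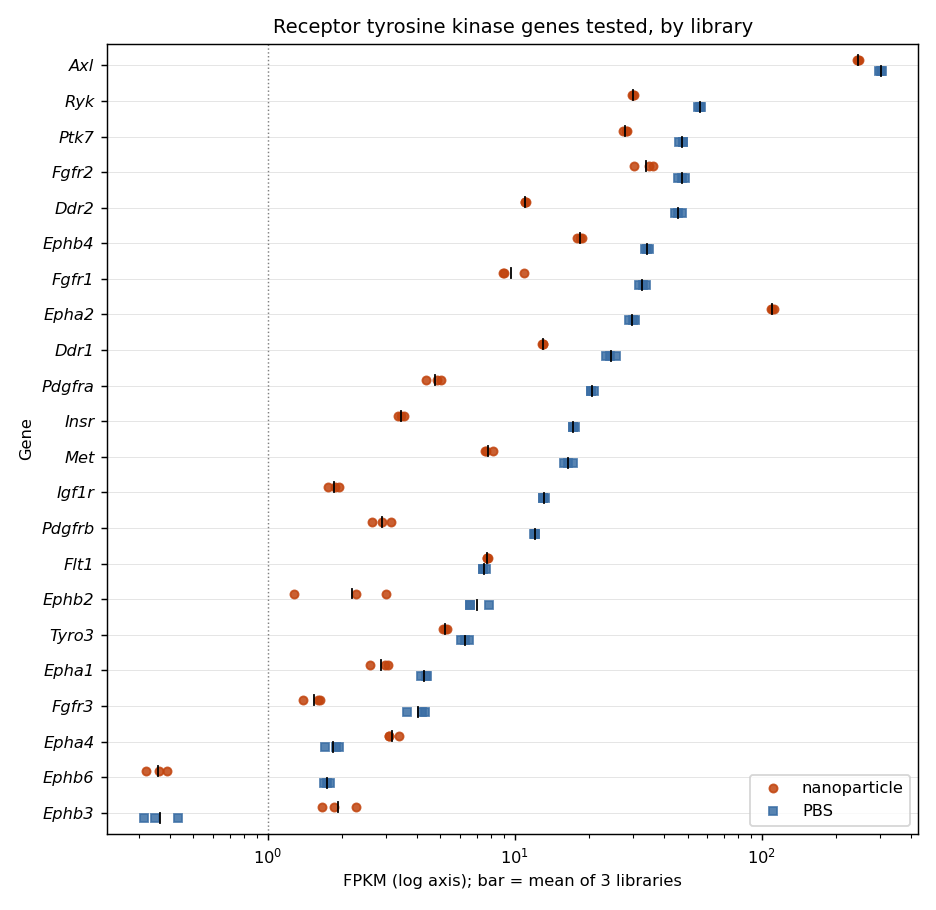
FPKM of the 22 tested receptor genes in each library, on a log axis, with nanoparticle libraries as circles above PBS libraries as squares, a bar at each group mean and a dotted line at 1 FPKM. Axl stands above all other members in both groups, and the points of the 2 groups do not overlap for any of the 22 genes.

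The mRNA of the receptors summed to 544.9 to 551.3 FPKM in nanoparticle libraries, against 732 to 740.2 FPKM in PBS libraries. Axl made up 44.5% to 44.7% of this sum in nanoparticle libraries and 40.7% to 41.5% in PBS libraries. Epha2 made up 19.9% to 20.3% in nanoparticle libraries, against 3.94% to 4.15% in PBS libraries. In nanoparticle libraries the order of mean levels was Axl, Epha2, Fgfr2, Ryk and Ptk7. In PBS libraries it was Axl, Ryk, Ptk7, Fgfr2 and Ddr2, where the libraries of Ptk7, Fgfr2 and Ddr2 overlapped each other. Epha2 was number 2 in the nanoparticle group and number 8 in the PBS group, while Igf1r was number 20 in the nanoparticle group and number 13 in the PBS group.

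**Figure D2:**
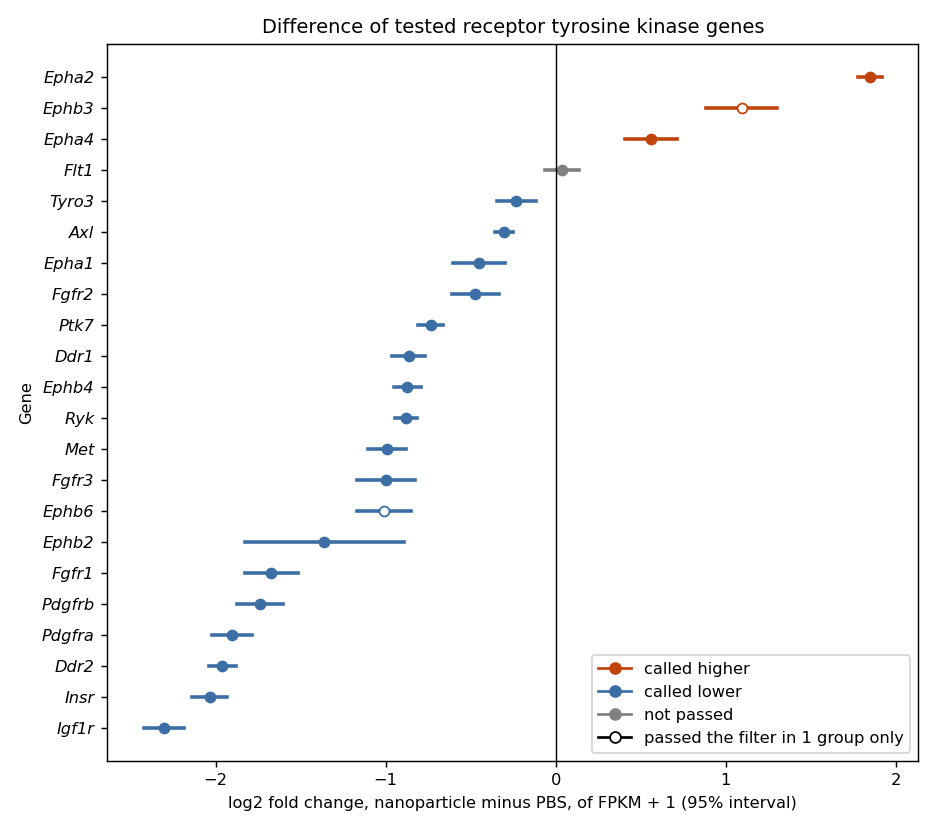
Log2 fold change (nanoparticle minus PBS) of log2(FPKM + 1) for the 22 tested receptor genes, with 95% intervals from the limma fit; open circles mark genes that passed the filter in 1 group only. Epha2 lies highest at 1.85 and Igf1r lowest at -2.30, and the interval of Flt1 spans 0.

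Igf1r and Insr, of the insulin receptor family, had the lowest log2 fold changes of log2(FPKM + 1), followed by the collagen receptor Ddr2. With a pseudocount of 0.1, Pdgfra (-2.09) lay below Ddr2 (-2.04). Igf1r, the receptor of the growth factors IGF1 and IGF2 (GRCm38 chr7:67952827-68233668, span 281 kb), had 1.87, 1.76 and 1.95 FPKM in nanoparticle libraries, against 13.0, 13.3 and 13.0 FPKM in PBS libraries. Every nanoparticle library was far below every PBS library, and the mean was 7.05-fold lower with nanoparticles (log2 fold change -2.30, SE 0.053, limma adjusted p = 2.6e-10). Insr, the insulin receptor (GRCm38 chr8:3122061-3279617), had 3.36, 3.56 and 3.45 FPKM in nanoparticle libraries, against 17.1, 17.2 and 17.5 FPKM in PBS libraries (log2 fold change -2.04, SE 0.046, limma adjusted p = 2.44e-10). Its mean was 4.998-fold lower with nanoparticles, again without overlap. Ddr2, a receptor for fibrillar collagen (GRCm38 chr1:169972307-170110762), had 11.1, 11.03 and 11.04 FPKM in nanoparticle libraries, against 44.6, 47.3 and 45.8 FPKM in PBS libraries and was 4.16-fold lower with nanoparticles (log2 fold change -1.96, SE 0.036, limma adjusted p = 7.54e-11). Ddr1, its epithelial relative that also binds collagen, had 13.0, 13.0 and 12.9 FPKM in nanoparticle libraries, against 24.3, 23.4 and 25.7 FPKM in PBS libraries and fell less, by 0.87 on the log2 scale. The nanoparticle libraries of Ddr2 had a coefficient of variation of 0.0998%, the smallest of the tested receptors.

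The start regions of Epha2 and Igf1r are shown because these genes stand at the ends of the range of log2(FPKM + 1) differences; by the ratio of means, Ephb3 lay above Epha2 (RefSeq windows of 300 bases, 250 before to 50 after the start of the RefSeq gene, GRCm38.p6, which can differ from the GENCODE start). Capitals mark matches to the cAMP response element TGACGTCA and to the GC box GGGCGG, on either strand. No base was in capitals for the AP-1 motif TGANTCA, the EGR motif GCGTGGGCG or TATAAA, which were searched on both strands as well and did not occur in these windows.
Epha2, chr4:141300971-141301270, plus strand: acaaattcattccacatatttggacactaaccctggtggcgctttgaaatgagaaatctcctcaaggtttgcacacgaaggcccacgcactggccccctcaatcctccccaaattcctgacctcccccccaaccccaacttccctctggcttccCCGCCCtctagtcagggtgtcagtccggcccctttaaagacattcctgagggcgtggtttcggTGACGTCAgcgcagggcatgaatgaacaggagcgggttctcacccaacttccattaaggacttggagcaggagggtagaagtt
Igf1r, chr7:67952007-67952306, plus strand: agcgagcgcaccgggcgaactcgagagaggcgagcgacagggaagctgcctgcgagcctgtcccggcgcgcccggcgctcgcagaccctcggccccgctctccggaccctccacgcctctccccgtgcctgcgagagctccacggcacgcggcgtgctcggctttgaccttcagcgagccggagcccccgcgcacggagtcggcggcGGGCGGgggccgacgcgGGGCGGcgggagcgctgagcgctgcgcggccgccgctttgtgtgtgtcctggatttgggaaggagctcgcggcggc
The Epha2 window was 54.7% G or C and held TGACGTCA beginning at -33 from that start and the GC box, read on the other strand, at -96. The Igf1r window was 76.0% G or C and held 2 GC boxes, at -43 and -26. Of the 22 tested receptor genes 19 had a window, and TGACGTCA occurred in those of Epha2 and Flt1, beside 1.79% of all 32851 windows. The GC box occurred in 15 of the 19, beside 35.7% of all windows, AP-1 letters in Ddr1 and Met (7.81% of all windows), TATAAA in Ddr2, Flt1 and Ryk (13.6%), and the EGR motif in 0 (0.612%). The 32851 windows were not limited to tested genes, so their shares do not come from a like set of genes. The matches describe letters in the window only.

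Platelet-derived growth factor receptors fell together. Pdgfra, which binds PDGF-A and other PDGF chains (GRCm38 chr5:75152292-75198215), had 4.86, 5.04 and 4.37 FPKM in nanoparticle libraries, against 20.8, 20.4 and 20.4 FPKM in PBS libraries (log2 fold change -1.90, SE 0.053, limma adjusted p = 8.7e-10). Pdgfrb, the main receptor of PDGF-B, had 2.91, 3.16 and 2.63 FPKM in nanoparticle libraries, against 11.9, 12.0 and 12.1 FPKM in PBS libraries (log2 fold change -1.74, SE 0.060, limma adjusted p = 3.44e-09). The means were 4.31-fold and 4.14-fold lower with nanoparticles, and no library of one group reached the other. These receptors are better known from fibroblasts and pericytes, whose markers were all under 1 FPKM here. Their relatives Kit, the stem cell factor receptor, and Flt3 were near 0. Pdgfra, Kit and Kdr lie in a row on chromosome 5, with gaps of 376.7 kb and 276.1 kb and no other feature of the table between them, and Pdgfra alone reached 1 FPKM. Flt1 and Flt3 lie 161 kb apart on the same chromosome, and Flt1 alone reached 1 FPKM.

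All 3 tested fibroblast growth factor receptors fell, but the direction of Fgfr2 turned to higher with the span and length trend removed (1.71, or 0.36 with RefSeq spans). Fgfr1, which answers to FGF2 among others, had 9.06, 10.9 and 8.98 FPKM in nanoparticle libraries, against 33.8, 31.7 and 33.1 FPKM in PBS libraries and was 3.40-fold lower with nanoparticles (log2 fold change -1.67, SE 0.068, limma adjusted p = 1.52e-08). Fgfr2, known for epithelial isoforms that answer to mesenchymal FGFs, had 36.3, 30.4 and 35.0 FPKM in nanoparticle libraries, against 48.8, 45.7 and 47.4 FPKM in PBS libraries and was 1.40-fold lower (log2 fold change -0.47, SE 0.061, limma adjusted p = 6.47e-05). Fgfr3, known as a brake on bone growth, had 1.62, 1.59 and 1.38 FPKM in nanoparticle libraries, against 4.31, 4.204 and 3.65 FPKM in PBS libraries (log2 fold change -0.997, SE 0.076, limma adjusted p = 9.25e-07). In nanoparticle libraries Fgfr2 averaged 33.9 FPKM and Fgfr1 9.65 FPKM. Fgfr4 was near 0, with 0.116 to 0.129 FPKM in nanoparticle libraries, against 0 to 0.0145 FPKM in PBS libraries. The GENCODE model of Fgfr2 runs over 2961 kb, while its RefSeq span is 104 kb. Of its 10328 exonic bases, 314 are shared with Ctbp2 on the same strand. Ctbp2 averaged 6.36 FPKM in nanoparticle libraries and 19.4 FPKM in PBS libraries. Reads in that overlap cannot be assigned, and their part in the Fgfr2 values was not tested.

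Met and the TAM receptors Axl and Tyro3 fell. Met, the hepatocyte growth factor receptor known for scattering and invasion of epithelial cells (GRCm38 chr6:17463800-17573980), had 8.16, 7.66 and 7.55 FPKM in nanoparticle libraries, against 15.9, 17.2 and 16.4 FPKM in PBS libraries (log2 fold change -0.99, SE 0.049, limma adjusted p = 3.71e-08). Its relative Mst1r, the receptor of macrophage-stimulating protein, had 0.0276 to 0.0989 FPKM in nanoparticle libraries, against 0.0105 to 0.0274 FPKM in PBS libraries. Axl, a receptor of GAS6 known for links to mesenchymal traits and drug resistance (GRCm38 chr7:25757273-25788705), was the most abundant member, with 246, 243 and 245 FPKM in nanoparticle libraries, against 298, 305 and 305 FPKM in PBS libraries. Every nanoparticle library of Axl was lower, and the mean was 1.24-fold lower (log2 fold change -0.31, SE 0.023, limma adjusted p = 8.93e-07). Tyro3, another TAM receptor, had 5.22, 5.29 and 5.11 FPKM in nanoparticle libraries, against 6.29, 6.07 and 6.51 FPKM in PBS libraries (log2 fold change -0.23, SE 0.051, limma adjusted p = 0.00191). The third TAM receptor, Mertk, known for the uptake of dying cells, stayed just below the filter, with 0.924 to 0.968 FPKM in nanoparticle libraries, against 0.495 to 0.596 FPKM in PBS libraries. Its libraries did not overlap and were higher with nanoparticles, but it was not tested.

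Ryk and Ptk7, the tested receptors of the Wnt pathway, fell. Ryk, a Wnt-binding pseudokinase, had 29.7, 30.3 and 30.02 FPKM in nanoparticle libraries, against 56.8, 56.4 and 55.2 FPKM in PBS libraries (log2 fold change -0.88, SE 0.029, limma adjusted p = 2.31e-09). Ptk7, a pseudokinase of planar cell polarity, had 28.3, 27.3 and 28.5 FPKM in nanoparticle libraries, against 47.9, 46.2 and 47.8 FPKM in PBS libraries (log2 fold change -0.74, SE 0.033, limma adjusted p = 1.71e-08). Both were among the 5 highest members in both groups. Ror1, a WNT5A receptor, had 0.184 to 0.378 FPKM in nanoparticle libraries, against 0.488 to 0.588 FPKM in PBS libraries. It was not tested, nor was Ror2, another WNT5A receptor, which had 0.0292 to 0.128 FPKM in nanoparticle libraries and was listed at 0 in every PBS library.

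Flt1 was the one tested member without a call. Flt1, the VEGF-A and PlGF receptor VEGFR1 (GRCm38 chr5:147561604-147726011), had 7.81, 7.70 and 7.69 FPKM in nanoparticle libraries, against 7.44, 7.62 and 7.44 FPKM in PBS libraries. Nanoparticle libraries were all slightly higher, but the log2 fold change of 0.038 did not pass (95% interval -0.063 to 0.14, adjusted p = 0.436, limma), and it was -0.10 after rescaling to TPM. With the span and length trend removed it was called higher, at 1.06, or 1.17 with RefSeq spans. Flt1 is known as an endothelial gene, as are Kdr, Flt4, Tek and Tie1. Of 9 endothelial markers, 7 did not reach 1 FPKM in any library, and Cldn5, Erg and Emcn were listed at 0 in every PBS library. The other 2 fell: Cdh5, VE-cadherin, averaged 1.54 ± 0.141 FPKM in nanoparticle libraries and 8.42 ± 0.0879 FPKM in PBS libraries (SD, n = 3 each), and Plvap, a protein of vessel fenestrae, averaged 2.45 ± 0.0274 FPKM in nanoparticle libraries and 5.74 ± 0.588 FPKM in PBS libraries. The 7 low markers had higher means with nanoparticles, among them Pecam1, at 0.362 FPKM in nanoparticle libraries and 0.0503 FPKM in PBS libraries. The summed endothelial list was 5.19 to 5.53 FPKM in nanoparticle libraries and 13.6 to 14.6 FPKM in PBS libraries. Its part in the level of Flt1 was not tested.

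Eph receptors, which bind membrane-anchored ephrins on neighbouring cells, included the 3 genes that rose. Epha2, a receptor of A-type ephrins widely expressed in epithelial tumours (GRCm38 chr4:141301240-141329384, window shown above), had 109.9, 109 and 112 FPKM in nanoparticle libraries, against 29.96, 29.0 and 30.7 FPKM in PBS libraries. The groups stood far apart, with a 3.69-fold higher mean with nanoparticles (log2 fold change 1.85, SE 0.030, limma adjusted p = 4.11e-11). Epha4, which binds ephrins of both classes, had 3.09, 3.39 and 3.09 FPKM in nanoparticle libraries, against 1.93, 1.88 and 1.70 FPKM in PBS libraries (log2 fold change 0.56, SE 0.068, limma adjusted p = 2.83e-05). Ephb3, a receptor of B-type ephrins, had 2.27, 1.85 and 1.66 FPKM in nanoparticle libraries, against 0.350, 0.431 and 0.315 FPKM in PBS libraries (log2 fold change 1.10, SE 0.092, limma adjusted p = 1.89e-06), and its direction was fixed by the filter; with a pseudocount of 0.1 FPKM its log2 fold change was 2.12.

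The other 4 tested Eph genes fell. Ephb4, the receptor of ephrin-B2 known from vessels and mammary gland (GRCm38 chr5:137350109-137378669), had 17.8, 18.8 and 18.4 FPKM in nanoparticle libraries, against 33.6, 35.0 and 34.3 FPKM in PBS libraries (log2 fold change -0.87, SE 0.036, limma adjusted p = 1.03e-08). Ephb2, known for positioning cells in intestinal crypts, had 1.28, 2.28 and 3.01 FPKM in nanoparticle libraries, against 6.60, 6.57 and 7.86 FPKM in PBS libraries. Its nanoparticle libraries differed more from each other than those of any other tested receptor, with a coefficient of variation of 39.6%, yet all were below PBS (log2 fold change -1.36, SE 0.20, limma adjusted p = 0.000383). The call was lost with the span and length trend removed (-0.26, limma adjusted p = 0.292, or -0.17, limma adjusted p = 0.468, with RefSeq spans). Ephb6, a pseudokinase, had 0.363, 0.322 and 0.392 FPKM in nanoparticle libraries, against 1.74, 1.69 and 1.78 FPKM in PBS libraries (log2 fold change -1.01, SE 0.070, limma adjusted p = 4.25e-07), with its direction fixed by the filter; with a pseudocount of 0.1 FPKM the log2 fold change was -2.00, and -1.53 on the TPM scale. Epha1, a receptor of ephrin-A1, had 2.99, 3.06 and 2.60 FPKM in nanoparticle libraries, against 4.39, 4.37 and 4.15 FPKM in PBS libraries (log2 fold change -0.45, SE 0.067, limma adjusted p = 0.000127). Exons of Epha1 overlap those of Zyx on the opposite strand over 236 of 3928 bases, and Zyx averaged 47.7 FPKM in nanoparticle libraries and 60.0 FPKM in PBS libraries. Whether the kit marked strand was not stated in the sources used here, so reads in that overlap cannot be assigned. Of the 7 tested Eph genes 3 rose and 4 fell, while of the 15 other tested receptors 14 fell and 0 rose, beside 46.0% of all tested genes lower and 40.5% higher. Without Ephb3 and Ephb6, 2 of 5 Eph genes rose and 3 fell. The difference between the families was not tested.

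The 22 receptor genes below the filter were mostly listed at or near 0 in PBS libraries. In 17 of them every nanoparticle library was higher than every PBS library, in 2 every one was lower, and in 3 the groups overlapped. Among the 9261 genes below the filter that were above 0 in at least 1 library, 48.9% were higher without overlap and 3.74% lower, so a shift of low genes towards higher listed values in nanoparticle libraries ran through the table. Of the 22 receptor genes, 13 were listed at 0 in every PBS library, beside 57.7% of the 9261 low genes. Of the same 22, 10 were at 0 in every PBS library and above 0 in every nanoparticle library, beside 28.4% of the 9261. Their highest value in any nanoparticle library was 0.162 FPKM, reached by Ephb1. The Eph and ERBB genes among these 10 were Ephb1, at 0.104 to 0.162 FPKM, and Erbb4, a neuregulin receptor, at 0.00850 to 0.0322 FPKM. The vascular and haematopoietic ones were Kdr (VEGFR2), at 0.0632 to 0.131 FPKM, Flt4 (VEGFR3), at 0.0782 to 0.105 FPKM, and Kit, at 0.0361 to 0.121 FPKM. The neurotrophin receptors were Ntrk2 at 0.0679 to 0.107 FPKM and Ntrk3 at 0.0364 to 0.0788 FPKM. Ret, the receptor of the GDNF family, stood at 0.0770 to 0.0932 FPKM, Ror2 at 0.0292 to 0.128 FPKM and Ros1 at 0.0342 to 0.0406 FPKM, all in nanoparticle libraries. The Eph genes Epha3, Epha5 and Epha7 were listed above 0 in 1 nanoparticle library each, at 0.0575, 0.0183 and 0.00797 FPKM. The number of fragments behind such values is unknown, and the part of library depth was not tested. No fold change is given for these genes. With no filter on low values, 17 receptor genes were called higher and 20 lower, or 38.6% and 45.5%, beside 42.0% higher and 26.0% lower of all genes in that fit.

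Of the others, the receptors with the highest levels were Erbb3, Mertk, Tie1 and Ror1. Erbb3, the neuregulin-binding pseudokinase that pairs with ERBB2, had 0.737, 0.728 and 0.775 FPKM in nanoparticle libraries, against 0.978, 1.11 and 1.21 FPKM in PBS libraries; each nanoparticle library was below each PBS library, and 2 libraries in all reached 1 FPKM, just short of the filter. Tie1, an orphan receptor of endothelium, had 0.791, 0.784 and 0.976 FPKM in nanoparticle libraries, against 0.350, 0.343 and 0.276 FPKM in PBS libraries, higher in each nanoparticle library. Flt3, the FLT3 ligand receptor of blood progenitors, had 0.188 to 0.233 FPKM in nanoparticle libraries, against 0 to 0.0625 FPKM in PBS libraries. Tek, the angiopoietin receptor, had 0.129 to 0.202 FPKM in nanoparticle libraries, against 0 to 0.0449 FPKM in PBS libraries. Alk, a receptor known from neurons, had 0.131 to 0.170 FPKM in nanoparticle libraries, against 0 to 0.0226 FPKM in PBS libraries.

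**Figure D3:**
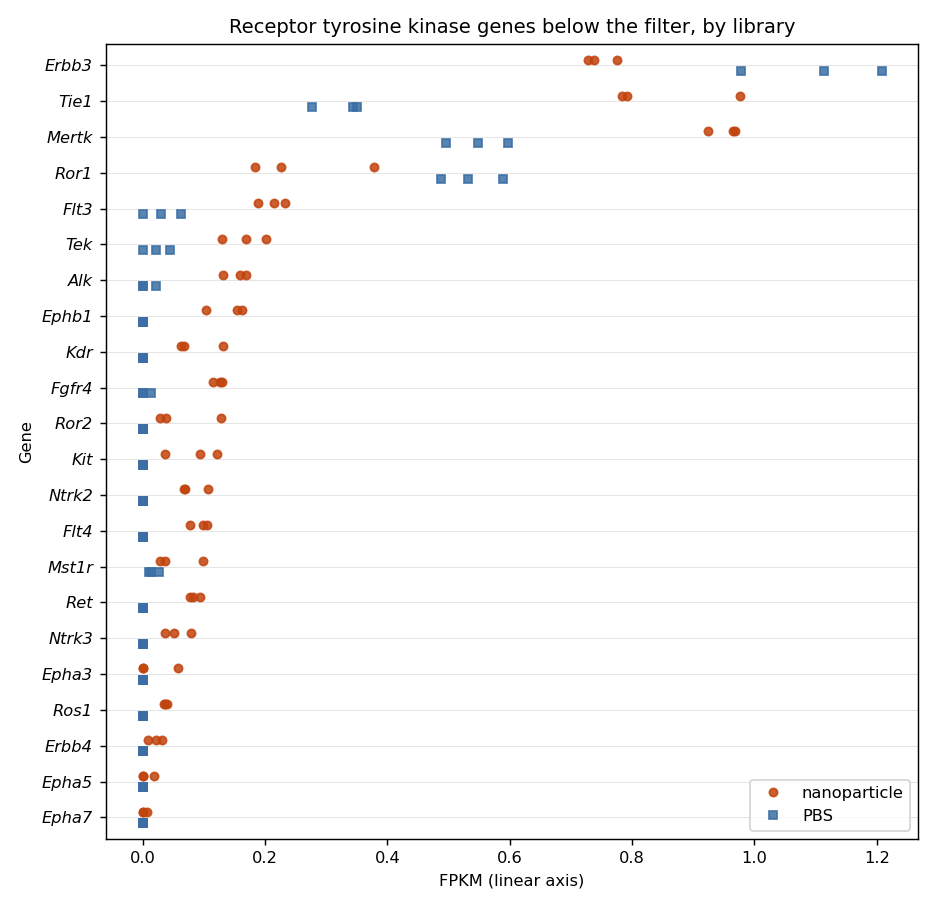
FPKM of the 22 receptor genes below the filter in each library, on a linear axis, with nanoparticle libraries as circles above PBS libraries as squares. Erbb3 and Ror1 are the genes with every nanoparticle library below every PBS library, and 18 genes stay under 0.3 FPKM in every library.

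Receptor genes are long, and long genes were mostly lower in the whole table. The median genomic span was 54.0 kb over the 22 tested receptor genes and 23.2 kb over all tested genes (GENCODE M21). By RefSeq span, 90.7% of the 1157 tested genes of 100 kb or more were called lower, with a median log2 fold change of -1.11, and 6 of the 8 receptor genes of that size fell, 1 rose and 1 did not pass, with a median of -1.18. Between 30 and 100 kb, 63.5% of 3109 genes were lower with a median of -0.35, and all 6 receptor genes fell, with a median of -1.28. Between 10 and 30 kb, 32.3% of 3714 genes were lower with a median of 0.17, and 6 of 8 receptor genes fell and 2 rose, with a median of -0.66. No tested receptor gene was shorter than 10 kb. The part of span in these differences was not tested.

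With the trend of the log2 fold change on span and exonic length removed, 16 receptor genes were called lower and 5 higher, or 72.7% and 22.7%, beside 43.3% lower and 40.7% higher of all genes in that fit. Igf1r then stood at -1.03, Insr at -1.04 and Ddr2 at -0.98. Pdgfra at -1.62, Pdgfrb at -1.59 and Fgfr1 at -1.20 moved less. Met at -0.17, Ptk7 at -0.29, Ryk at -0.38 and Axl at -0.28 kept the call as lower with small values. Tyro3 and Epha1 moved further from 0, to -0.36 and -0.68. So did Fgfr3 to -1.21, Ddr1 to -0.97, Ephb4 to -0.89 and Ephb6, whose direction the filter fixed, to -1.25. Ephb2 no longer passed, as given above. Epha4 moved up to 1.57 and Epha2 stayed at 1.82. Flt1 and Fgfr2 were called higher, at the values given above. The RefSeq spans were an alternative added after the data were seen.

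**Figure D4:**
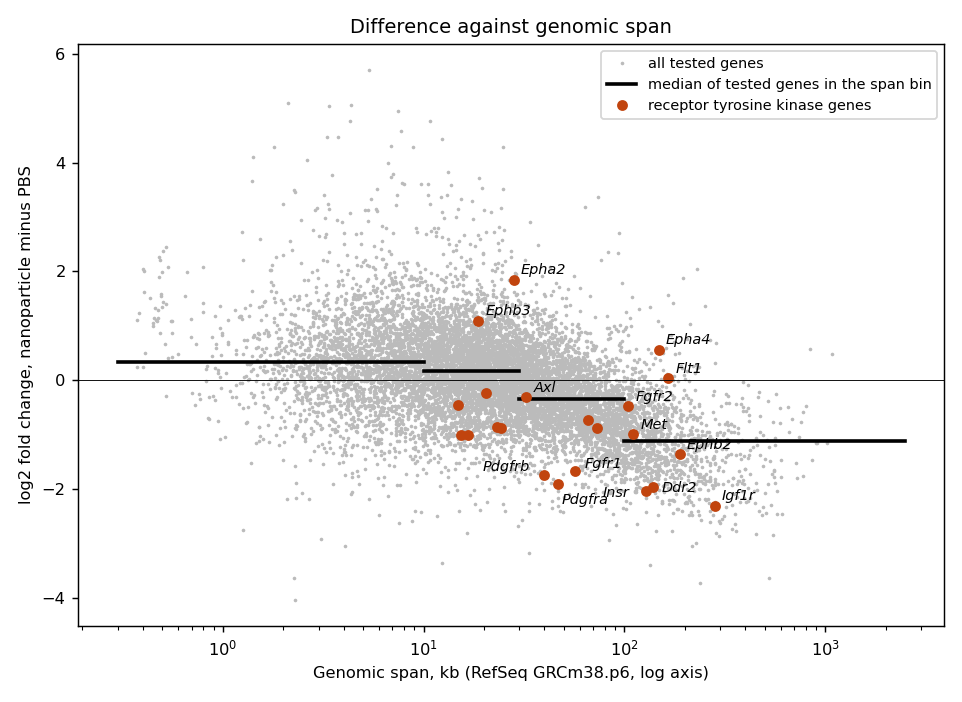
Log2 fold change (nanoparticle minus PBS) against genomic span on a log axis for all tested genes with a RefSeq span (grey), with the median of each span bin as a black line and the 22 tested receptor genes in red. Epha2, Ephb3, Epha4 and Flt1 lie above the line of their bin, as do Fgfr2, Met and Axl by less, and Pdgfra, Pdgfrb, Fgfr1, Insr, Ddr2 and Igf1r lie below theirs.

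Ligands of these receptors went in both directions, as did all tested genes, of which 40.5% were higher and 46.0% lower. Of 52 listed ligand genes 26 were tested, and 11 rose, 11 fell and 4 did not pass, with a median log2 fold change of -0.072. The filter fixed the direction of 3 of these, Efnb3, Fgf1 and Ntf5, and without them 10 rose and 9 fell. The list also holds Fgf11 and Fgf13, intracellular proteins that are not regarded as ligands of FGF receptors. Fgf11 is among the genes counted as lower (log2 fold change -0.97), and Fgf13 was not tested. On the log2(FPKM + 1) scale the largest rises were those of Pdgfb, the B chain of platelet-derived growth factor, with 19.2 ± 0.664 FPKM in nanoparticle libraries and 4.24 ± 0.532 FPKM in PBS libraries (SD, n = 3 each; log2 fold change 1.95), and of Angpt2, an angiopoietin that binds TEK, with 7.10 ± 0.104 FPKM in nanoparticle libraries and 2.14 ± 0.274 FPKM in PBS libraries (log2 fold change 1.37). Pdgfb was higher in the same libraries in which Pdgfra and Pdgfrb were lower. The largest falls were those of Efna5, an A-type ephrin, with 1.91 ± 0.174 FPKM in nanoparticle libraries and 13.0 ± 0.187 FPKM in PBS libraries (log2 fold change -2.27), and of Nrg2, a neuregulin, with 0.984 ± 0.0464 FPKM in nanoparticle libraries and 5.94 ± 0.597 FPKM in PBS libraries (log2 fold change -1.80).

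Among 26 co-receptor and binding protein genes 15 were tested, and 4 rose, 10 fell and 1 did not pass (median log2 fold change -0.70). Of all tested genes, 40.5% were higher and 46.0% lower. Sdc2, a heparan sulfate proteoglycan, had 12.4 ± 0.314 FPKM in nanoparticle libraries and 53.2 ± 0.783 FPKM in PBS libraries. Nrp2, a neuropilin co-receptor of VEGF receptors, had 34.3 ± 0.380 FPKM in nanoparticle libraries and 112 ± 2.36 FPKM in PBS libraries. Fgfbp1, which releases FGFs from the matrix, was higher, with 22.1 ± 2.21 FPKM in nanoparticle libraries and 7.36 ± 0.799 FPKM in PBS libraries, as was Igfbp6, which binds IGF2, with 6.53 ± 0.323 FPKM in nanoparticle libraries and 2.34 ± 0.678 FPKM in PBS libraries. The log2 fold changes were -2.02 for Sdc2, -1.67 for Nrp2, 1.47 for Fgfbp1 and 1.19 for Igfbp6.

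Of 34 adaptor and proximal effector genes 29 were tested, and 8 rose, 20 fell and 1 did not pass (median log2 fold change -0.62). The shares over all tested genes were 40.5% higher and 46.0% lower. On the TPM scale 3 of the 29 adaptor genes rose and 20 fell, beside 34.4% higher and 52.7% lower of all tested genes. Vav3 had 1.91 ± 0.178 FPKM in nanoparticle libraries and 18.4 ± 0.735 FPKM in PBS libraries and the lowest log2 fold change of the list, -2.74. Plcg2, a phospholipase C, had 15.9 ± 0.425 FPKM in nanoparticle libraries and 63.3 ± 0.849 FPKM in PBS libraries (-1.93). Dok2, a docking protein, had 2.54 ± 0.214 FPKM in nanoparticle libraries and 0.758 ± 0.0967 FPKM in PBS libraries (1.01), and Pik3r3, a regulatory subunit of PI3-kinase, had 1.22 ± 0.194 FPKM in nanoparticle libraries and 0.137 ± 0.0501 FPKM in PBS libraries (0.96). Both were under 1 FPKM in every PBS library, and the filter thus fixed their direction; without them 6 rose and 20 fell.

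Of 30 symbols listed for genes that restrain receptors or turn them over, 28 were in the table. Sef and Il17rd are names of the same gene, which was present as Il17rd. Hgfac, the HGF activator, was also listed although it does not restrain a receptor, and it was not tested. Of the 28 genes 26 were tested, of which 8 rose, 16 fell and 2 did not pass (median log2 fold change -0.71). Spred1, an inhibitor of RAS-MAP kinase signalling, had 8.23 ± 0.303 FPKM in nanoparticle libraries and 34.9 ± 0.655 FPKM in PBS libraries (-1.96), and Sh3kbp1, an adaptor of CBL in receptor uptake, had 5.79 ± 1.23 FPKM in nanoparticle libraries and 22.3 ± 0.695 FPKM in PBS libraries (-1.79). Sh2b3, an adaptor that dampens cytokine and growth factor receptors, had 31.7 ± 1.27 FPKM in nanoparticle libraries and 16.8 ± 1.10 FPKM in PBS libraries (0.88), and Spry4, a Sprouty inhibitor, had 14.5 ± 1.32 FPKM in nanoparticle libraries and 8.41 ± 0.280 FPKM in PBS libraries (0.72). All of these passed at an adjusted p under 0.05 (limma). Of all tested genes 46.0% were called lower and 40.5% higher, as given above, and no difference between a list and the rest was tested.

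**Figure D5:**
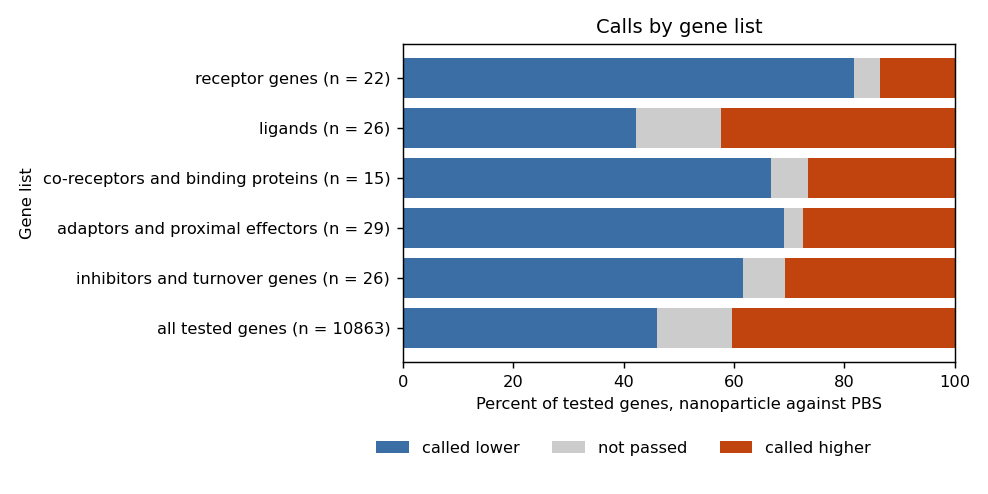
Percent of tested genes called lower, not passed and called higher (nanoparticle against PBS, limma adjusted p under 0.05) for the receptor genes, 4 lists of their pathway and all tested genes. Of the receptor genes 81.8% were called lower and 13.6% higher, beside 46.0% and 40.5% of all tested genes.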

How the data were processed

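RNA of 6 samples of 4T1 cells, 3 per group, was enriched for mRNA and sequenced, per the labels' protocols. The authors deposited 1 table with a column per library. Its values were taken as FPKM, scaled by the authors within each library; the deposited header names no unit, so this rests on the values. STAR and featureCounts, and the builds GRCm38 and mm10, are named in the submitters' processing notes with no version or role; which program made the FPKM was not stated in the sources used here. Ratios of low values between libraries of a group showed no steps of 1 read (at most 1.86% in any 1% bin), so depth is unknown, and counting intervals are not given.

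Features without a gene identifier (701, 0.631% to 0.67% of summed FPKM) were left out. The 10863 genes that reached 1 FPKM in 3 or more libraries were fitted as log2(FPKM + 1) with limma 3.58.1 (statmod 1.5.0, R 4.3.3; trend and robust settings). Simulated data with a far smaller share of changed genes served to check the code only, not the calls. Spans and exonic lengths came from GENCODE M21 (GRCm38), matched for 99.8% of tested genes, and RefSeq GRCm38.p6, which also gave the sequences. Tables and figures were made with Python 3.11.15, numpy 2.4.6, pandas 2.3.3 and matplotlib 3.10.9. Members and lists were chosen with earlier results of these data known. Every member was named, and from each pathway list the 2 called genes with the largest rise and the 2 with the largest fall. Protein sequences were not used here. Alternatives were a pseudocount of 0.1, a filter at 5 FPKM or none, TPM and median-of-ratios scaling, a replicate block, removal of the span and length trend, a test against a 1.5-fold change, and each library left out with the tested genes kept.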

Additional observations from a re-analysis of the deposited data

How the results depend on the processing

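The counts of receptor genes called were 18 lower and 3 higher without any 1 of the 6 libraries, and no receptor gene changed its call in those fits. With a replicate block they were again 18 and 3, with 4982 lower and 4389 higher over all genes, and the block changed no call of a receptor gene. Deviations of same-numbered libraries from their group means correlated at -0.014, -0.043 and 0.041. Pairs with unlike numbers ranged from -0.077 to 0.094. The labels do not say whether a replicate number marks a shared batch, and these correlations cannot tell. Leaving out the filter gave 17 of 44 receptor genes higher, 19 of 50 ligands, 12 of 26 co-receptor genes and 8445 (42.0%) of all 20124 genes. With a filter at 5 FPKM fewer genes were tested. Of 17 receptor genes 1 was higher and 15 lower, and of 14 ligands 5 were higher and 6 lower. Of all 8876 genes in that fit, 42.6% were higher and 46.1% lower. The TPM scale moved the median of all genes by -0.15 on the log2 scale, with 34.4% of them higher and 52.7% lower. On it 3 of 29 adaptor genes were higher and Flt1 was at -0.10, while the receptor counts stayed at 18 and 3. Removing the span and length trend left 5 of 22 receptor genes higher, beside 40.7% of all genes in that fit. With RefSeq spans, an alternative chosen after seeing the data, 5 were again higher, beside 41.0%. Fgfr2 turned to 1.71 and 0.36. Against a 1.5-fold change, 7 of 26 ligands were higher and 7 lower, and 2 of 15 co-receptor genes were higher. Of 29 adaptor genes 2 were higher and 12 lower, and 1 of 26 inhibitor genes was higher. Of all tested genes 1853 (17.1%) were higher and 2341 (21.6%) lower. The cause of these shifts was not tested where the filter or threshold itself does not set it. The unknown depth limits what can be said of genes near 0.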
